A study of Drosophila melanogaster with 2 samples.

Results

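The tRNA genes of Drosophila melanogaster were examined for Psq binding in whole embryos. The members were all genes of biotype tRNA on the main chromosome arms in the Ensembl models of the dm6 assembly, 290 of 18164 genes. Each was scored by whether the summit of a Psq peak lay within 1000 bp of its start. The data came from chromatin immunoprecipitation sequencing (ChIP-seq) of 1 group, embryos of mixed sex, aged 0 to 24 hours, from flies that express Psq with GFP at its C-terminal end. Both replicates, numbered 3 and 4, carried the tagged protein, and chromatin was precipitated with an antibody to GFP. Whole embryos mix all cell types and stages, and the peaks are those of the tagged protein. A control experiment is named by the labels and was not analysed here. With 1 group there is no contrast between conditions, so tRNA genes were set beside protein-coding genes and all genes of the same annotation. The tRNA genes lay on 5 of the 6 arms, with 98 on 2R, 79 on 3R, 48 on 3L, 41 on 2L, 24 on X and none on chromosome 4.

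Transfer RNAs carry amino acids to the ribosome and are transcribed by RNA polymerase III (Pol III). In most tRNA genes Pol III is recruited through a pair of sequence elements inside the transcribed region, the A box and the B box, which the factor TFIIIC recognises before TFIIIB positions the polymerase upstream of the start. Transcription ends at a run of T just past the gene. Psq (pipsqueak) is a nuclear protein with a BTB domain for protein contacts and a DNA-binding domain known for GAGA repeats.

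The 290 genes had a median length of 73 bp, and 16 contained an intron. RefSeq lists all 290 at the same coordinates. They shared 95 distinct sequences, 238 genes had at least 1 identical copy elsewhere, and the most repeated sequence occurred 13 times. By annotation alone, 79 genes had a protein-coding transcription start site (TSS) within 1000 bp. Of the rest, 153 had another tRNA gene start within 5000 bp and are called clustered, and 58 had none and are called isolated. Most lay between coding genes (156) or in an intron of a coding gene (127), and 7 overlapped a coding gene's exon.

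The tRNA genes printed next are a selection. The first 5 are among the 11 that are the nearest tRNA gene to a reproducible Psq summit within 1000 bp. The others are tRNA:Cys-GCA-1-3, which has a weaker summit at its start, and tRNA:Glu-CTC-3-4. The latter is 1 of 6 identical copies in a cluster with no summit in any list. Sequences are from the RefSeq dm6 assembly, 5′ to 3′ on the strand of the tRNA gene. Capitals mark the A box, where the pattern searched was found, and the B box GTTCNANNC.
tRNA:Tyr-GTA-1-8 (chr3R:8669081-8669174, minus strand): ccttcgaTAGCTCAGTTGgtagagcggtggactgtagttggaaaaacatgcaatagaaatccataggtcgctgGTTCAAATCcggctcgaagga
tRNA:Val-TAC-1-1 (chr3L:5356343-5356415, plus strand): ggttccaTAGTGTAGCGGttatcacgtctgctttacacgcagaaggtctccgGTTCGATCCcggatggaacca
tRNA:Val-CAC-2-5 (chr3R:19672277-19672349, minus strand): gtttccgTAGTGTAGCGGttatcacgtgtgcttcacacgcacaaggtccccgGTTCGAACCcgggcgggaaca
tRNA:Gln-TTG-2-1 (chrX:3427452-3427523, minus strand): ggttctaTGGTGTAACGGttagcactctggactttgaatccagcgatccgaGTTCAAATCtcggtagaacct
tRNA:Leu-TAA-2-1 (chr3R:24112964-24113047, plus strand): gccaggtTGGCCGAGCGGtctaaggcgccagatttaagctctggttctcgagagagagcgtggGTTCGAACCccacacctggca
tRNA:Cys-GCA-1-3 (chr3L:3096369-3096440, plus strand): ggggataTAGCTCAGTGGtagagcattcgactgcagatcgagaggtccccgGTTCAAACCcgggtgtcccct
tRNA:Glu-CTC-3-4 (chr3L:1397695-1397766, plus strand): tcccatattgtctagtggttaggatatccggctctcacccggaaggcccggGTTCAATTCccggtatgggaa
All 7 hold a B box and 6 hold a match to the A box pattern, which tRNA:Glu-CTC-3-4 does not. Over all tRNA genes, searching both strands, 93.4% held the B box, against 3.17% of the first 73 bp of protein-coding genes. The A box pattern matched 93.1% of tRNA genes and 5.41% of those coding stretches. The terminator TTTT, on the strand of the gene, was found in the 30 bp after 95.5% of tRNA genes and 41.8% of protein-coding genes.

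Few tRNA genes had a reproducible Psq summit nearby. The authors' reproducible set, made with the irreproducible discovery rate (IDR), held 2999 peaks. Of the 290 tRNA genes, 16 (5.52%, 95% interval 3.42 to 8.77) had an IDR summit in the window of 1000 bp, against 14.7% of protein-coding genes and 13.0% of all genes. Of all bases of the arms, 3.96% lay within 1000 bp of an IDR summit, a share inside the tRNA interval. Within 200 bp the count was 1 tRNA gene (0.345%, interval 0.0609 to 1.93), tRNA:His-GTG-1-3, against 8.80% of protein-coding genes and 7.10% of all genes. Other RNA classes had other shares within 1000 bp. An IDR summit lay near 36 of 269 snoRNA genes (13.4%) and 248 of 3261 genes of biotype ncRNA (7.61%). The counts were 0 of 32 snRNA genes and 0 of 99 rRNA genes, with upper interval limits of 10.7% and 3.74%. Within 200 bp the share was also low for snoRNA genes, 2 of 269 (0.743%, interval 0.204 to 2.67), and for ncRNA genes (1.81%). The low share within 200 bp was thus not particular to tRNA genes. Intervals here are Wilson intervals for counting error only. Neighbouring genes share summits and are not independent, so no test was made between gene classes. Peak lists carry no read counts, so library depth is unknown.

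The 16 genes shared 11 distinct summits, and the scores and distances of these are plotted by nearest tRNA gene. A score is the peak caller's statistic, on a scale of its own in each list, so the values of a summit in the pooled, replicate 3 and replicate 4 lists are given side by side and not compared. The IDR peaks scored 72.5 or more in the pooled list, with a median of 108 over all 2999, and 101 over the 11. The ranks of the 11 among the 2999 ran from 366 to 2318. All 11 were found in both replicate lists, as were 2994 of the 2999 IDR peaks (99.8%).

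**Figure D1:**
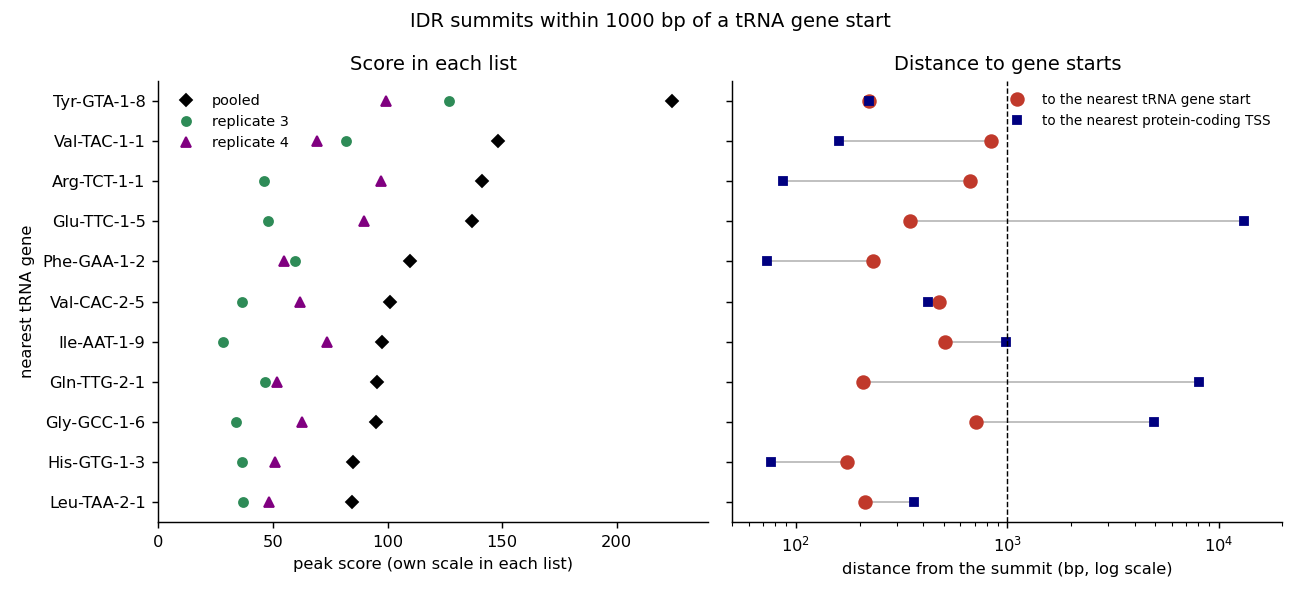
Left, the score of each of the 11 IDR summits in the pooled list (diamonds), replicate 3 (circles) and replicate 4 (triangles), each on its own scale. Right, the distance in bp (log axis) from each summit to the nearest tRNA gene start (circles) and the nearest protein-coding TSS (squares), with a dashed line at 1000 bp. The closest tRNA gene start is 174 bp away, and 3 summits have a coding TSS nearer than 100 bp.

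Of the 11 summits, 7 were nearest to a tRNA gene that has a coding TSS within 1000 bp, 2 to a clustered and 2 to an isolated gene. In 5 the coding TSS was nearer to the summit than the tRNA gene start was, in 5 it was farther, and in 1 the distances were equal. The median distance was 348 bp to the tRNA gene start and 363 bp to the coding TSS. On the strand of the tRNA gene, 7 summits lay upstream of its start and 4 downstream.

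The strongest of them lay on 3R (peak 8669259 to 8669466, dm6) beside tRNA:Tyr-GTA-1-8, a gene for tyrosine tRNA that contains an intron. It scored 224 in the pooled list, 127 in replicate 3 and 99.4 in replicate 4. The summit was 222 bp upstream of this gene and 691 bp upstream of its neighbour tRNA:Tyr-GTA-1-7. It was also 222 bp upstream of a TSS of CG8036, in whose intron both tRNA genes lie. Both also lie in an intron of a further coding gene, p. RefSeq gives CG8036 the synonym Transk.

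The 101 bp around 3 of these summits are printed to show what lay beneath them: the strongest, the one at an isolated tRNA gene far from any coding TSS, and one with the GAGA-type repeat GAGAG. They read 5′ to 3′ on the strand of the tRNA gene, and capitals mark GAGAG.
Summit beside tRNA:Tyr-GTA-1-8 (chr3R:8669346-8669446, minus strand): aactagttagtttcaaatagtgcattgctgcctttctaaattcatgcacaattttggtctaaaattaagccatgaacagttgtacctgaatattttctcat
Summit beside tRNA:Gln-TTG-2-1 (chrX:3427680-3427780, minus strand): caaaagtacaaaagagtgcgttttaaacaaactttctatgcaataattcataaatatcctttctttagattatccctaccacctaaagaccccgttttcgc
Summit beside tRNA:Leu-TAA-2-1 (chr3R:24112702-24112802, plus strand): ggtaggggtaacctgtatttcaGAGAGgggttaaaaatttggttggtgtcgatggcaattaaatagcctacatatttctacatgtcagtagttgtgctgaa
On either strand, GAGAG lay within 100 bp of 3 of the 11 summits (27.3%), those nearest to tRNA:Val-TAC-1-1, tRNA:Ile-AAT-1-9 and tRNA:Leu-TAA-2-1, against 33.1% of all IDR summits.

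Of the next 4 summits by score, 3 lay near coding TSSs. The summit nearest to tRNA:Val-TAC-1-1 on 3L (peak 5355285 to 5355724) scored 148 in the pooled list, 81.7 in replicate 3 and 69.3 in replicate 4, and lay 838 bp upstream of that tRNA gene but 159 bp upstream of a TSS of lama. On 2R (peak 11651550 to 11651989), a summit that scored 141 pooled, 46.2 in replicate 3 and 97.0 in replicate 4 lay 669 bp from tRNA:Arg-TCT-1-1 and 879 bp from tRNA:Met-CAT-1-1, and 87 bp upstream of CG34228. The summit beside tRNA:Phe-GAA-1-2 on X (peak 6744091 to 6744530) scored 110 pooled, 59.8 in replicate 3 and 54.8 in replicate 4. It lay 232 bp from the tRNA gene start and 73 bp upstream of RpL17, which encodes a protein of the large ribosomal subunit. These 3 summits were thus each closer to a coding TSS than to the tRNA gene.

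The only IDR summit within 200 bp of a tRNA gene start was of the same kind. It lay on 2R (peak 12335020 to 12335459), 174 bp upstream of tRNA:His-GTG-1-3, a gene for histidine tRNA, and 935 bp upstream of tRNA:His-GTG-1-2. The nearest coding TSS, of CG8490, was 76 bp away. Its scores were 84.8 pooled, 36.4 in replicate 3 and 50.9 in replicate 4.

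At 3 summits no coding TSS lay within 1000 bp. One was in the cluster on 2R that holds 3 Glu-TTC genes (peak 19726963 to 19727402). It scored 137 pooled, 48.0 in replicate 3 and 89.7 in replicate 4, lay 348 bp from tRNA:Glu-TTC-1-5, and was within 1000 bp of tRNA:Glu-TTC-1-6 (869 bp) and tRNA:Glu-TTC-1-4 (970 bp). The nearest start of any gene was that of a snoRNA gene, 31 bp away, and the nearest coding TSS, of CG8517, was 13107 bp away. The second lay on X (peak 3427510 to 3427949), 207 bp upstream of tRNA:Gln-TTG-2-1, an isolated glutamine tRNA gene in an intron of CG12535. It scored 95.3 pooled, 46.6 in replicate 3 and 51.8 in replicate 4, and no gene start was nearer. The last lay on 2L (peak 14519178 to 14519617), 707 bp upstream of tRNA:Gly-GCC-1-6. It scored 95 pooled, 33.8 in replicate 3 and 62.8 in replicate 4, and the replicate 3 summit was 139 bp from the pooled one.

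The remaining summits had a coding TSS at 363 to 983 bp. The summit beside tRNA:Val-CAC-2-5, which lies in an intron of Naam on 3R (peak 19671653 to 19672092), scored 101 pooled, 36.7 in replicate 3 and 61.7 in replicate 4. It was 476 bp from the tRNA gene start and 423 bp from a TSS of Naam. The summit beside tRNA:Leu-TAA-2-1 on 3R (peak 24112532 to 24112971) scored 84.7 pooled, 37.1 in replicate 3 and 48.1 in replicate 4. It was 212 bp upstream of that gene and 363 bp from CG13605. The summit beside tRNA:Ile-AAT-1-9 on 2R (peak 19714839 to 19715278), an isolated isoleucine tRNA gene, scored 97.8 pooled, 28.1 in replicate 3 and 73.5 in replicate 4. It lay 506 bp from that gene and 983 bp from CG8517, and ranked 4436 in replicate 3, the lowest rank of any of the 11 in that list.

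Distances continued on both sides of the limit of 1000 bp. Just inside it was tRNA:Glu-TTC-1-4 at 970 bp, with a score of 137. Just outside it were tRNA:Gly-GCC-1-5 at 1021 bp and tRNA:Glu-CTC-2-1 at 1076 bp, from the summits beside tRNA:Gly-GCC-1-6 and tRNA:Glu-TTC-1-5. A summit with no tRNA gene in its window was 1098 bp from tRNA:Arg-ACG-1-3, with a score of 224, and 578 bp from the nearest TSS of EcR, the ecdysone receptor gene. Another, with a score of 92.2, lay at the same distance from tRNA:iMet-CAT-2-1. The nearest IDR summit to a tRNA gene start was at a median distance of 13877 bp, and to a protein-coding gene start 12520 bp.

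The density of summits was next counted per kb with each summit and base assigned to its nearest tRNA gene start, so that neighbours in a cluster were not counted again. Within 1000 bp of tRNA gene starts there were 0.0285 IDR summits per kb, against 0.0685 around protein-coding gene starts and a mean of 0.0224 over the arms. In the innermost 200 bp the tRNA value was 0.00939 per kb, from 1 summit, against 0.182 per kb at coding gene starts. It was 0.0529 per kb from 200 to 500 bp of tRNA gene starts, from 6 summits, against 0.0425 for coding gene starts. The IDR set thus had a lower density at tRNA gene starts themselves than at coding gene starts, though the tRNA value rests on 1 summit in 107 kb. From 500 to 1000 bp of tRNA gene starts the density was 0.0241 per kb, near the mean of the arms and the coding value of 0.0279. From 1000 to 2000 bp it was 0.0456 per kb for tRNA genes and 0.0208 for coding genes. The lower tRNA density over the window thus came mainly from the innermost 200 bp.

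The long lists gave another picture. The pooled list and those of replicates 3 and 4 each hold 30000 peaks and, per the deposited text files, include background. Within 1000 bp of tRNA gene starts the pooled list had 0.519 summits per kb, against 0.418 around protein-coding gene starts and 0.224 over the arms. The innermost 200 bp had 0.638 per kb around tRNA gene starts and 0.816 per kb around coding gene starts. From 500 to 1000 bp it was 0.464 per kb for tRNA genes and 0.270 for coding genes. Summits near tRNA genes were thus spread more evenly over the window than those near coding genes. In the innermost 200 bp the tRNA value was 0.563 per kb in replicate 3 and 0.573 in replicate 4, and the coding values there were 0.774 and 0.783. For tRNA genes without a coding TSS within 1000 bp, the pooled density over the window was 0.518 per kb, close to that of all tRNA genes. In those genes the innermost 200 bp held 0.576 per kb, and no IDR summit.

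**Figure D2:**
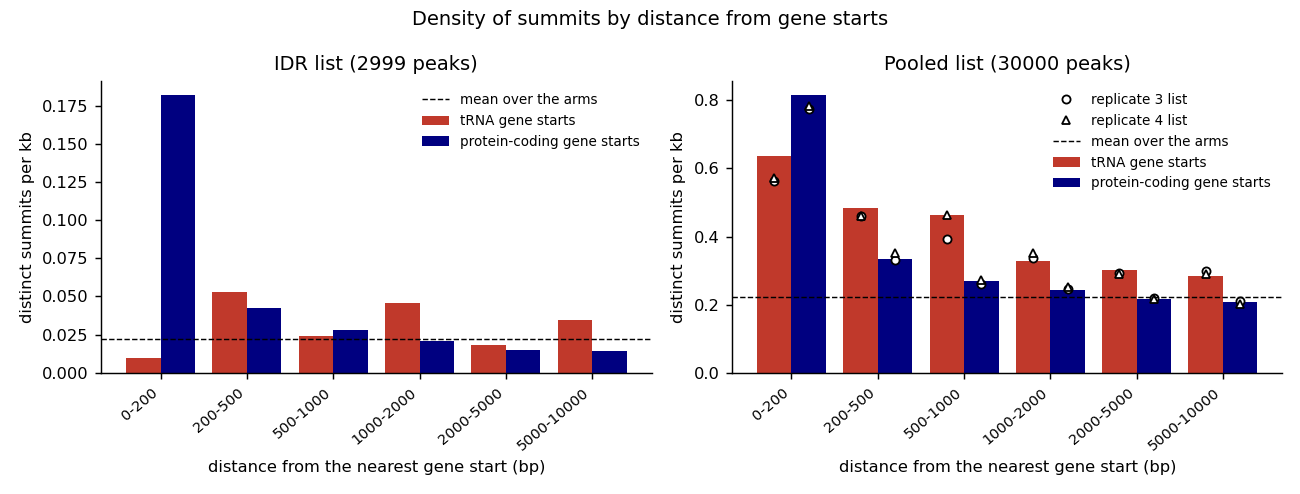
Distinct summits per kb (vertical axis) by distance from the nearest gene start in bp (horizontal axis, upper bounds included), for tRNA gene starts (red) and protein-coding gene starts (blue). The IDR list is on the left and the pooled list on the right, with replicate 3 (circles) and replicate 4 (triangles) drawn over the pooled bars and the mean over the arms dashed. In the innermost 200 bp of the IDR list tRNA genes have 0.00939 per kb and coding genes 0.182.

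Over genes, 205 of 290 tRNA genes (70.7%, interval 65.2 to 75.6) had a pooled summit within 1000 bp, against 58.0% of protein-coding genes and 54.5% of all genes. Replicate 3 gave 193 tRNA genes (66.6%), against 56.9% of protein-coding and 53.6% of all genes. Replicate 4 gave 202 (69.7%), against 57.9% and 54.8%. Both replicate lists had a summit in the window of 160 tRNA genes (55.2%), against 47.0% of protein-coding and 43.4% of all genes, while 55 tRNA genes had none in either. Within 200 bp the order was the other way: 72 tRNA genes (24.8%, interval 20.2 to 30.1) had a pooled summit, against 33.4% of protein-coding genes and 28.8% of all genes. In replicate 3 the share within 200 bp was 22.4% of tRNA genes, against 31.6% of protein-coding and 27.3% of all genes. In replicate 4 it was 20.7%, against 31.7% and 27.5%.

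The step between these results lay in the lower ranks of the lists. With the strongest 5000 pooled peaks, 9.66% of tRNA genes had a summit within 1000 bp, against 22.2% of protein-coding genes and 19.7% of all genes. With the strongest 10000 the shares were 30.3%, 35.1% and 31.6% in the same order. With the strongest 15000 they were 49.7%, 43.1% and 39.6%, so the tRNA share was then the higher. The tRNA genes with no coding TSS within 1000 bp followed the same course, with 7.11%, 28.4% and 49.3% at these 3 depths. In replicate 4 the tRNA share also passed the coding share between 10000 and 15000 peaks, with 47.2% against 42.3% at 15000. In replicate 3 it did so later, with 39.7% against 41.3% at 15000 peaks and 49.3% against 47.4% at 20000. A longer list covers more of the genome by itself: the share of all bases within 1000 bp of a pooled summit was 6.36% for 5000 peaks, 11.9% for 10000 and 17.2% for 15000.

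**Figure D3:**
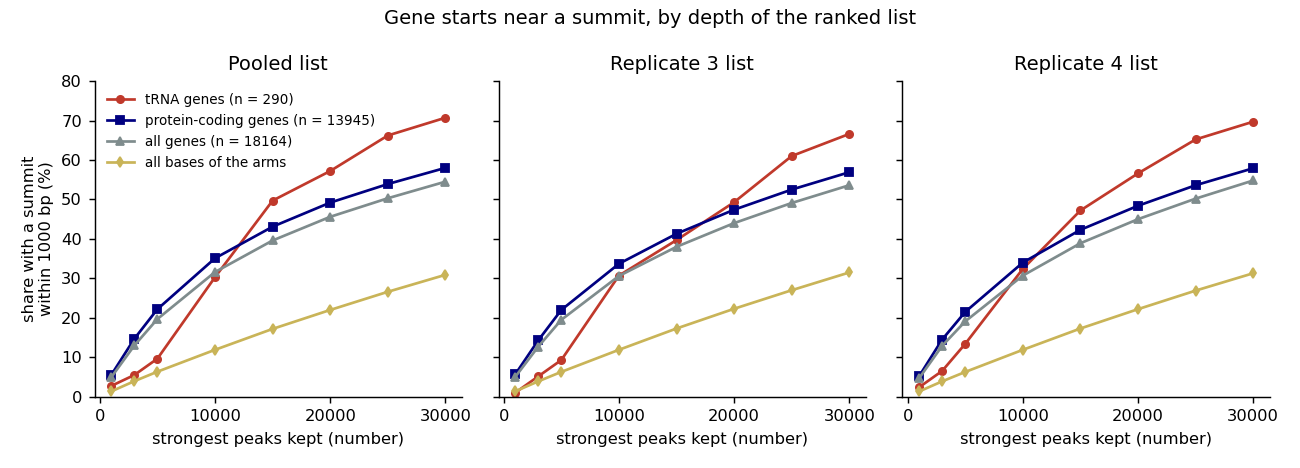
The share of gene starts with a summit within 1000 bp (vertical axis, percent) against the number of strongest peaks kept (horizontal axis), for tRNA genes, protein-coding genes, all genes and all bases of the arms, in the pooled, replicate 3 and replicate 4 lists. In the pooled list the tRNA line is below the coding line at 10000 peaks (30.3% and 35.1%) and above it at 15000 (49.7% and 43.1%).

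The pooled summits near tRNA genes had scores close to the median of all pooled summits. There were 200 of them, 11 of which were the IDR summits, and the median score of the 200 was 27.5, against 31.5 for pooled summits near a coding TSS and 27.1 for all. Their median −log10 q was 0.394, against 0.616 near a coding TSS and 0.376 over all, so most were far from the value that all IDR peaks share, 3.87. Peaks at the same place were found in both replicate lists for 111 of the 200 (55.5%, interval 48.6 to 62.2), against 68.7% near a coding TSS and 57.8% over all. At matched ranks the share near tRNA genes differed less from that near a coding TSS than it did over all ranks. It was below both other shares to rank 20000 and between them beyond that, and its interval included both in each range. To rank 10000 outside the IDR set it was 87.2% near tRNA genes, 93.5% near a coding TSS and 92.9% over all. It was 52.7%, 59.5% and 55.4% from rank 10000 to 20000, and 29.4%, 30.0% and 22.8% below that.

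Outside the IDR set, the strongest pooled summit in the window of a tRNA gene scored 65.2. It was 992 bp from tRNA:Gln-CTG-1-1, an isolated glutamine tRNA gene in an intron of mrj, and its peak overlaps the stronger IDR peak at mrj. The next was 914 bp from tRNA:Glu-CTC-3-1 (clustered), with 62.3 pooled, 22.1 in replicate 3 and 41.5 in replicate 4. The third was 868 bp from tRNA:iMet-CAT-2-1, a gene for the initiator methionine tRNA, with 60.9 pooled. Its peak overlaps the IDR peak 1098 bp from this gene, and both overlap the same replicate peaks, which scored 48.6 in replicate 3 and 48.7 in replicate 4. The strongest that sat at a tRNA gene start was 9 bp inside tRNA:Cys-GCA-1-3, with 59.4 pooled, 26.0 in replicate 3 and 33.0 in replicate 4. It was within 1000 bp of 5 tRNA genes, and the nearest coding TSS was 10580 bp away. Among genes with a coding TSS nearby, the highest outside the IDR set was 137 bp from tRNA:Gly-GCC-1-13, at 54.4 pooled, 27.9 in replicate 3 and 38.0 in replicate 4, and 329 bp from a TSS of tud, a gene needed for germ plasm. All of these lie below the lowest IDR score, 72.5, as does every pooled peak outside the IDR set.

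The share of tRNA genes with a summit differed by setting, and in another order in the IDR set than in the long lists. With a coding TSS within 1000 bp, 9 of 79 tRNA genes (11.4%, interval 6.11 to 20.3) had an IDR summit. Clustered genes had 5 of 153 (3.27%, interval 1.40 to 7.42), and isolated genes 2 of 58 (3.45%, interval 0.951 to 11.7). For the coding genes on the other side of these pairs the interval included the share of other coding genes: 10 of 55 protein-coding genes (18.2%, interval 10.2 to 30.3) whose start was within 1000 bp of a tRNA gene start had an IDR summit, against 14.7% of the other protein-coding genes. In the pooled list the clustered genes had the highest share, 120 of 153 (78.4%), followed by those beside a coding TSS with 53 of 79 (67.1%) and the isolated genes with 32 of 58 (55.2%). Replicate 3 gave 71.2%, 67.1% and 53.4% in this order, and replicate 4 gave 71.2%, 77.2% and 55.2%. The first and second places thus changed between replicates, and the isolated genes had the lowest share in every long list.

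**Figure D4:**
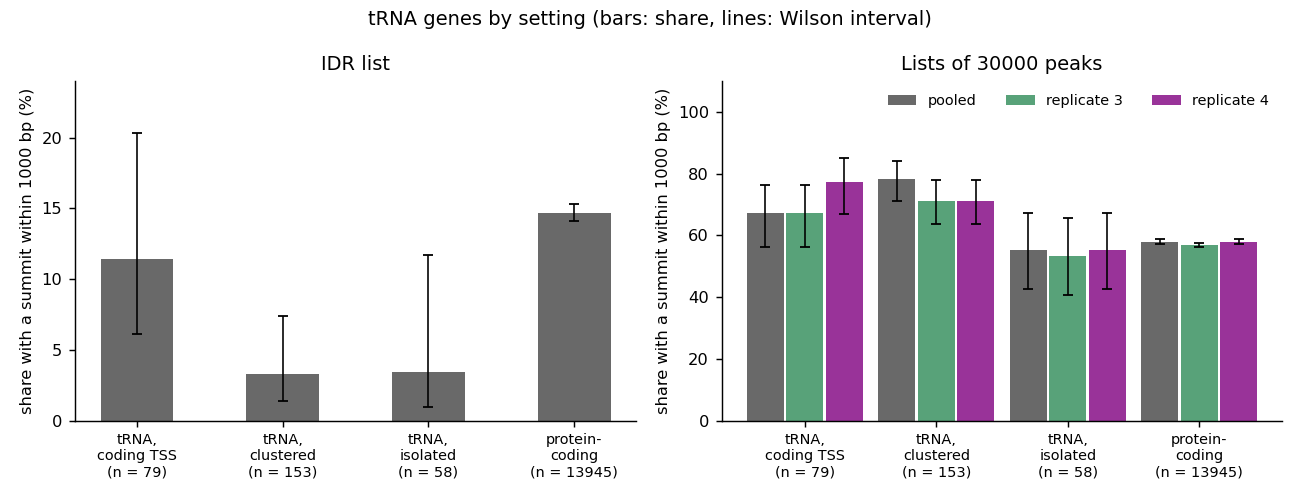
The share of tRNA genes with a summit within 1000 bp (bars, percent, with 95% Wilson intervals) by setting, with protein-coding genes at the right. The IDR list is on the left, and the pooled, replicate 3 and replicate 4 lists are on the right. In the IDR list tRNA genes beside a coding TSS stand at 11.4% and the other classes at 3.27% and 3.45%, and the interval of the first overlaps those of both others.

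Windows in a cluster overlap, so loci were also counted, a locus being tRNA genes joined by gaps of up to 5000 bp. Of 144 loci, 11 (7.64%) had an IDR summit and 102 (70.8%) a pooled one. A pooled summit was in the window of 43 of 76 loci with 1 gene (56.6%), 32 of 38 with 2 genes (84.2%), 19 of 21 with 3 to 5 genes (90.5%) and 8 of 9 with 6 or more (88.9%). Larger loci have longer windows, and per kb of window the density was 0.401, 0.654, 0.565 and 0.529 in the same order. Single genes thus had the lowest density, and density did not go on increasing with the number of genes.

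The 5 largest loci differed from each other. The locus on 2R from 19725620 to 19728958, with 3 Glu-TTC, 2 Glu-CTC and 2 iMet-CAT genes, had 7 pooled summits, 1.35 per kb, which included the IDR summit beside tRNA:Glu-TTC-1-5. All 7 of its genes had a summit within 1000 bp in the pooled list and in each replicate list. The locus of 11 genes on 2R from 6161535 to 6171759, with genes for lysine, arginine, asparagine and isoleucine tRNAs, had 6 pooled summits (0.571 per kb) with scores of 23.6 to 52.5. Of these, 2 were in both replicate lists. The other locus of 11, on 3R from 17617761 to 17631750, had 6 summits (0.454 per kb) with scores of 20.1 to 29.8. The 2 remaining loci of 7 genes, on 2R from 13430282 to 13432794 and on X from 14014814 to 14017284, had 2 pooled summits each.

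Identical copies were found with and without summits. The locus on 3L from 1397695 to 1401852 consists of 6 identical Glu-CTC genes, of which the printed tRNA:Glu-CTC-3-4 is the first, and had no summit within 1000 bp in the IDR, pooled or either replicate list. The same sequence occurs in 3 more Glu-CTC genes, which form the locus on 3L from 1379934 to 1380600. All 3 had a pooled summit within 1000 bp, from 2 summits with scores of 23.6 and 62.3, and none had an IDR summit. Replicate 3 had a summit in the window of all 3 and replicate 4 in that of 1. At a locus on 3L with other sequences, from 3095737 to 3097590, all 6 genes (4 Cys-GCA and 2 Lys-CTT) had a pooled summit. These came from 2 summits with scores of 18.4 and 59.4. These loci were chosen after their values were seen. Over all tRNA genes, 4.62% of those with an identical copy and 9.62% of those without had an IDR summit. The pooled shares were 71.4% and 67.3%. Inside the tRNA gene itself there were 17 pooled summit and gene pairs, 16 of them in genes with an identical copy (0.911 per kb) and 1 in a gene without (0.224 per kb). Replicate 3 had 15 (0.854 per kb) and 1 (0.224 per kb) in the same order, while in replicate 4 the order of densities was the other way, with 13 (0.740 per kb) and 4 (0.895 per kb). No source used here says how reads that map to several copies were treated, and their part in these values was not tested.

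By amino acid, the 16 genes with an IDR summit were spread over 11 types: 3 of 19 Glu, 2 of 5 His, 2 of 10 Tyr and 2 of 15 Val genes, and 1 each of Arg, Gln, Gly, Ile, Leu, Met and Phe. The 3 Glu genes shared 1 summit, as did the 2 His genes, the 2 Tyr genes, and the Arg and Met genes. These counts, and the pooled counts of clustered types, are thus not counts of separate summits. A pooled summit was within 1000 bp of all 17 Ala genes and all 6 iMet genes, with 15 and 6 in replicate 3 and 16 and 4 in replicate 4. The lowest pooled shares among types with more than 1 gene were those of Met, at 3 of 6, and Pro, at 9 of 17 (52.9%). The single gene for selenocysteine tRNA had no pooled summit in its window. By arm, the pooled share was 81.6% on 2R, 73.4% on 3R, 73.2% on 2L, 58.3% on 3L and 37.5% on X (9 of 24, interval 21.2 to 57.3). Protein-coding genes showed no such range over these arms, with 57.0% on 2R, 57.6% on 3R, 56.4% on 2L, 61.2% on 3L and 57.2% on X. In the IDR set the order was different, with 8.33% on X (2 of 24, interval 2.32 to 25.8), 8.16% on 2R, 5.06% on 3R, 2.44% on 2L and 2.08% on 3L. On X, replicate 3 gave 33.3% and replicate 4 gave 41.7% of tRNA genes. These counts were not tested, and 7 of the 24 tRNA genes on X belong to a single locus.

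The GAGAG repeat was more frequent inside tRNA genes than at coding gene starts, but the tRNA genes that hold it had about the same pooled share as the others. It was found in 63 of 290 tRNA genes (21.7%), against 8.07% of the first 73 bp of protein-coding genes, and in the 100 bp upstream of 11.7% of tRNA genes and 13.2% of protein-coding genes. The 63 genes had 23 distinct sequences and belonged to 10 types, and included all 13 Glu-CTC, all 12 Ala-AGC, all 8 Phe-GAA and all 4 Leu-TAA genes. With GAGAG in the gene, 2 of 63 (3.17%, interval 0.875 to 10.9) had an IDR summit in the window, and without it 14 of 227 (6.17%, interval 3.71 to 10.1). The pooled shares were 73.0% with and 70.0% without, and within 200 bp 23.8% and 25.1%. Over 1000 bp replicate 3 gave 69.8% with and 65.6% without, and replicate 4 gave 60.3% and 72.2%, so the order differed between replicates, and all 4 intervals overlap. Of the 200 pooled summits near tRNA genes, 20.5% had GAGAG within 100 bp, against 25.8% of those near a coding TSS and 24.4% of all pooled summits.

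The coding genes that make, mature and charge tRNAs had higher shares in the IDR set than the tRNA genes themselves. Of 17 genes of the Pol III machinery, 6 (35.3%, interval 17.3 to 58.7) had an IDR summit in the same window of the gene start, against 14.7% of protein-coding genes. Of 20 cytosolic aminoacyl-tRNA synthetases, which attach the amino acid, 6 did (30.0%, interval 14.5 to 51.9). Of 32 genes for tRNA processing and modification, 8 did (25.0%, interval 13.3 to 42.1), and of 15 mitochondrial synthetases 2 did (13.3%, interval 3.74 to 37.9). The interval of the Pol III machinery list lies above the share of protein-coding genes, while those of the other 3 lists include it. The lists were chosen with earlier results of these data known, so the place of an interval is not a test. The Pol III count also rests on few genes. Replicate 4 alone, cut to the length of the IDR set, gave 5 of 17 (29.4%), against 14.5% of protein-coding genes. Replicate 3 alone, cut in the same way, gave 6 of 17, against 14.3%. No interval was made for these alternatives, and none of the list counts was tested.

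**Figure D5:**
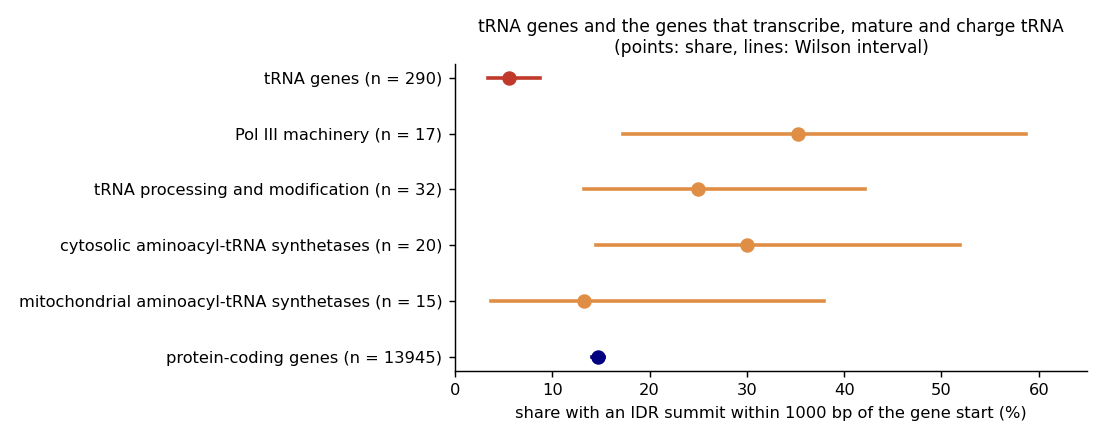
The share of genes with an IDR summit within 1000 bp of the gene start (horizontal axis, percent, points with 95% Wilson intervals) for tRNA genes, for 4 lists of genes that transcribe, mature or charge tRNA, and for protein-coding genes. The tRNA genes stand at 5.52%, the Pol III machinery at 35.3% and protein-coding genes at 14.7%.

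Among the Pol III genes, Bdp1, a subunit of TFIIIB, had the highest score, 288 pooled, 132 in replicate 3 and 159 in replicate 4, with a summit 69 bp upstream of its start and 60 bp from a TSS of CG6565. CG7099, listed by RefSeq as dTFIIIC220 and so a subunit of the factor that reads the A and B boxes, had 256 pooled, 116 in replicate 3 and 132 in replicate 4, at 120 bp upstream. Brf, another TFIIIB subunit, had 201, with its summit 182 bp upstream but 75 bp from a TSS of sds22. The polymerase subunit genes Polr3E and Polr3C had 177 and 176. The summit of Polr3C was 12 bp from its start, and that of Polr3E was 212 bp from a TSS of CG10584. So 3 of these 5 summits, those of Bdp1, Brf and Polr3E, were nearer to a TSS of a neighbouring coding gene.

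Among the cytosolic synthetases, SerRS had 238 pooled, 118 in replicate 3 and 114 in replicate 4, with its summit 17 bp from its start and 9 bp from a TSS of CG17260. IleRS had 190, ThrRS and GluProRS 138 each, AsnRS 103 and MetRS 78.4 in the pooled list. Their summits lay 105 to 206 bp upstream of the start. That of MetRS, 143 bp upstream, was 102 bp from a TSS of CG15084. LeuRS-m (208, 836 bp upstream and 670 bp from Dhc64C) and ArgRS-m (88.1, 109 bp upstream) were the mitochondrial members. Among processing genes, Elp5, of the Elongator complex that modifies the wobble base, had 254 pooled, 111 in replicate 3 and 139 in replicate 4, at 34 bp from its start. Trmt6 (190) and Trmt61 (89.3) encode the subunits of a tRNA methyltransferase, Elp4 (136) belongs to Elongator, and RNaseZ (94.3) encodes the nuclease that trims the 3′ end. The other 3 were Rpp14a and Rpp14b, RNase P protein genes that share a summit (83.3), and Elp6 (73.8). The shared summit was 98 bp from the start of Rpp14a, 804 bp from that of Rpp14b and 98 bp from a TSS of CG7950. Elp6 had its summit 389 bp from its start and 233 bp from a TSS of Dic1. For Trmt61 these distances were 146 bp and, to a TSS of RpL34a, 83 bp. The peaks of all 22 members counted here were found in both replicate lists, as were 99.8% of all IDR peaks.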

How the data were processed

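ChIP-seq peak lists of tagged Psq in embryos, 1 group with replicates 3 and 4, were analysed from the deposited dm6 files. Per the labels, chromatin was sonicated to fragments of 200 to 800 bp. Per the deposited text files, the authors called peaks and background on each replicate and on the pooled reads against a control, and derived the IDR list from those. The deposited score and −log10 q of each peak are the caller's values, q being capped, and the deposited summit offset gave the summit. Neither the aligner, the caller, its version nor the IDR threshold is stated in these sources. The dm3 lists were not used.

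Gene starts came from Ensembl release 115 without transposable elements, and sequence from the RefSeq dm6 assembly. Summits within 1000 bp of a gene start were counted with Python 3.11.15 and pandas 2.3.3, with 95% Wilson intervals and no test, since neighbouring genes share summits. A peak was in a replicate list when the intervals overlapped by at least 1 bp, and a replicate score is that of the overlapping peak. Clusters were genes within 5000 bp. Counting was checked on planted summits. The members, gene lists and rules were chosen with earlier results of these data known. Named were all tRNA genes nearest to an IDR summit in the window, the highest pooled scores outside the set, summits next to the 1000 bp limit, the largest loci, nearest coding genes, and up to 5 members of each gene list with an IDR summit. Further list members were named after their values were seen. The values of 1 list member are not reported here. Alternatives were other windows, list lengths, cluster limits, either replicate alone, interval overlap, genes without identical copies, and loci. The last 2 were added after seeing the data.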

Additional observations from a re-analysis of the deposited data

How the results depend on the processing

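Of 72 alternatives over 10 results, 55 stayed inside the 95% interval of the reported share and 17 did not. The share of tRNA genes with an IDR summit, 5.52%, was 1.72%, 2.41% and 13.4% with windows of 250, 500 and 2000 bp, against 9.84%, 12.3% and 18.7% of protein-coding genes. It was 3.10% with the 1499 highest-scoring IDR peaks, against 7.91%, and 9.62% for genes with no identical copy. The pooled share, 70.7%, was 32.4%, 50.3% and 82.4% with these windows and 30.3% with the strongest 10000 peaks. Beside a coding TSS the IDR share was 5.06% at 250 bp. In clusters it was 0% at 250 bp, 0.654% at 500 bp and 10.5% at 2000 bp. For isolated genes it was 12.1% at 2000 bp and 0% with the 1499 strongest peaks, which also left 0% of tRNA genes with a summit within 200 bp and 9.38% of processing genes with one in the window. Apart from the value for genes with no identical copy, whose cause was not tested, the direction of these changes follows from wider or narrower windows and shorter lists by construction. Their size does not. From 1000 to 2000 bp the IDR share went from 5.52% to 13.4% for tRNA genes and from 14.7% to 18.7% for protein-coding genes.

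With the 2999 strongest peaks of either replicate alone, the IDR share of tRNA genes was 5.17% to 6.55%, and 0.345% to 0.690% within 200 bp. By class it was 11.4% to 12.7% beside a coding TSS, 2.61% to 3.92% in clusters and 3.45% to 5.17% for isolated genes. The pooled share was 66.6% to 69.7% in the replicate lists. The gene lists gave 29.4% to 35.3% for Pol III, 21.9% for processing, 25.0% to 30.0% for cytosolic and 13.3% to 20% for mitochondrial synthetases. No paired analysis was possible because there is 1 group. Depth limits all counts in a way that cannot be given, since the lists hold no reads.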

Other observations

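Among other genes known to be transcribed by Pol III, none of 10 (4 of the U6 type, 2 for 7SK RNA, 2 for 7SL RNA, and those for the RNAs of RNase P and RNase MRP) had an IDR summit within 1000 bp of its start, against 13.0% of all genes, a share from which a count of 0 in 10 genes does not stand apart. The nearest was 1036 bp from snRNA:7SKa. In the pooled list 8 of the 10 had a summit in the window, against 54.5% of all genes, with highest scores of 22.5 to 54.4. Without an IDR summit in the window, these scores are below the lowest IDR score of 72.5 by construction. In replicate 4 the window of snRNA:7SKa held a summit that scored 128 on the scale of that list. That peak overlaps the IDR peak whose summit was 1036 bp away, and the 2 summits were 46 bp apart. The IDR summit lay 179 bp upstream of a TSS of CG1142. This list was chosen after seeing the data.

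Protein-coding genes with a tRNA gene start within 1000 bp had larger shares in the replicate lists than other protein-coding genes. Of these 55 genes, 78.2% (interval 65.6 to 87.1) had a summit in replicate 3 and 72.7% (interval 59.8 to 82.7) in replicate 4. The other 13890 protein-coding genes had 56.8% and 57.9%. In the pooled list the shares were 65.5% (interval 52.3 to 76.6) and 58.0%, so the interval there included the share of the other genes. These differences were not tested.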
